A study of Homo sapiens with 24 samples.

Results

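The 9 libraries of cells expressing miR-302a, miR-372 or miR-373, called the seed group here, were compared with the 6 libraries of cells expressing miR-133a or miR-155, which makes 15 of the 24 samples of the series. The members were taken from the column labels of batch 2, each miRNA was given equal weight, and every gene with enough reads was used. The question was which transcripts differ with the seed that the seed group shares, and not with the expression of a miRNA hairpin as such.

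All groups were Flp-In T-REx 293 cells, a derivative of the human embryonic kidney line HEK293, and each group had 3 libraries that were transduced and grown separately. A lentivirus carried a doxycycline-inducible CMV promoter, GFP and a synthetic hairpin of 1 miRNA placed in an intron. All groups received 1 µg/mL doxycycline for 7 days and 1 mg/mL geneticin for 6 days, and 1000 ng of RNA entered each polyadenylated RNA library. The empty vector cells of that batch (3 libraries) carried the same construct without a hairpin under the same treatment, and they entered no contrast. These are selected cell populations that make a miRNA from a viral promoter. HEK293 cells also hold adenoviral early region genes whose products bind retinoblastoma and p53 family proteins. In whole cultures, fewer cells of a type and less RNA per cell cannot be told apart.

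Animal miRNAs guide Argonaute proteins to messenger RNAs, mainly through pairing of bases 2 to 8, the seed, with sites in the 3′UTR, and the paired transcripts are translated less and degraded faster. The miR-302 cluster and the miR-371 to miR-373 cluster are made in human embryonic stem cells. Their members miR-302a, miR-372 and miR-373 share 1 seed. They are known for repressing inhibitors of the G1 to S transition and receptors of the TGF-β family, and for promoting reprogramming to pluripotency. miR-133a is a muscle miRNA and miR-155 is a miRNA of activated lymphocytes and myeloid cells.

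The mature sequences from RefSeq (GRCh38.p14) are printed 5′ to 3′ with bases 2 to 8 in capitals, to show what the seed group shares and what it does not.
miR-302a: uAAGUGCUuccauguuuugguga
miR-372: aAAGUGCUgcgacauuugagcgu
miR-373: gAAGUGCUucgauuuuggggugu
miR-133a: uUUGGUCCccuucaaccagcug
miR-155: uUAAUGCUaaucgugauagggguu
The 3 miRNAs of the seed group had 1 identical seed. Outside the seed, miR-302a matched miR-372 at 7 of 16 positions and miR-373 at 10 of 16, and miR-372 matched miR-373 at 9 of 16. A full match to the shared seed in a messenger RNA, with an A opposite the first base, is the 8mer AGCACTTA. The 7mer-m8 site AGCACTT lacks that A, and the 7mer-A1 site GCACTTA lacks the match to base 8. The 8mers of the comparators are GGACCAAA for miR-133a and AGCATTAA for miR-155.

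The 15 libraries held 13047400 to 35040778 counted reads, and 14003 of 29794 genes had enough counts to be tested. All 8 measured genes of the fixed HEK293 marker list were above 1 CPM (counts scaled to the library total) in every library. Of 14 measured markers of other cell types, 9 were under 1 CPM in every library, none was at 0 in all of them, and the summed level was 27.7 to 39.8 CPM in the seed group and 20.3 to 30.2 CPM in the comparators. COL1A1 and CD68 were above 1 CPM throughout. In each miRNA group the library numbered 2 deviated most from its group mean (SD of log2 deviations 0.188 to 0.296, against 0.173 to 0.219 in the others). The rank correlation of these deviations with exon length was -0.35, -0.40 and -0.37 in the libraries numbered 2 of miR-133a, miR-155 and miR-372. It was 0.23 and 0.17 in those of miR-302a and miR-373. The highest value, 0.38, belonged to miR-372 number 3, and in miR-373 number 1 was further from 0, at -0.23. The contrast itself had a rank correlation of 0.045 with exon length over 14003 genes, which are not independent replicates.

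Between the seed group and the comparators, 3601 genes differed at an adjusted p under 0.05 (25.7% of those tested; edgeR's quasi-likelihood test with Benjamini-Hochberg adjustment). Of these, 1745 (12.5%) were lower and 1856 (13.3%) were higher in the seed group. The median log2 fold change of all genes was 0.005, and 94 genes fell and 178 rose by at least 1 on the log2 scale. Against miR-133a alone, 2631 genes differed (18.8%, with 9.11% lower and 9.68% higher), and against miR-155 alone 3516 (25.1%, with 12.9% lower and 12.2% higher). miR-133a and miR-155 also differed from each other in 2109 genes (15.1%, with 7.75% lower and 7.31% higher in miR-133a), and 914 of the 3601 called genes (25.4%) were among them. Without miR-133a number 1 or 3, the comparators differed in 1362 or 1311 genes. The p-values of these contrasts measure spread between cultures of the same miRNA, not spread between miRNAs. With counts summed per miRNA, seed group against comparators called 1358 genes, among them 35% of the 3601.

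A stricter call asked for a difference from miR-133a and from miR-155 in the same direction, using for each gene the larger p of both contrasts, which share the seed group libraries. It left 706 genes (5.04%), of which 428 (3.06%) were lower and 278 (1.99%) were higher in the seed group. These are called jointly lower and jointly higher here. They made up 24.5% of the genes called lower and 15% of those called higher. Their median log2 fold change was -0.55 for the lower genes and 0.63 for the higher genes, and 64 and 68 of them differed by at least 1. The count moved with single libraries: without miR-133a number 1, 2 or 3 it was 439, 470 or 437, and without the 5 libraries numbered 2 it was 1222.

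**Figure D1:**
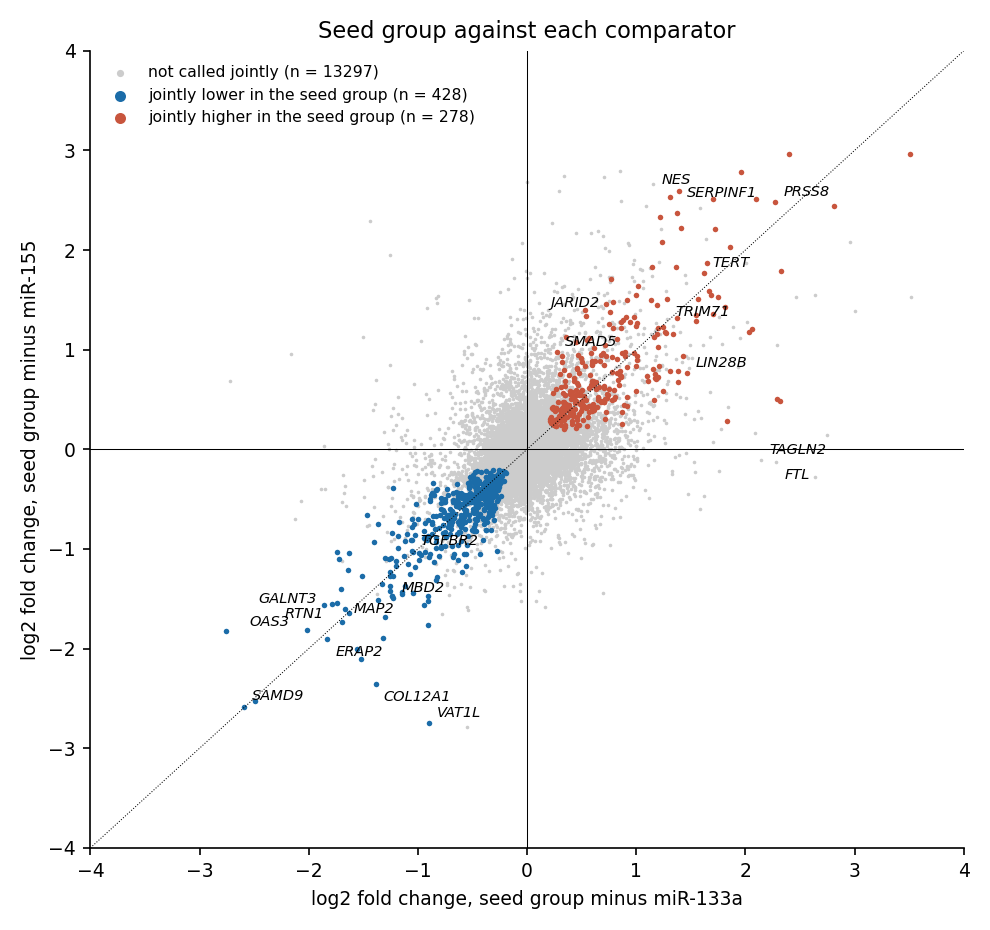
Each point is 1 of 14003 genes, plotted by its log2 fold change of the seed group minus miR-133a (x axis) and minus miR-155 (y axis). The 428 jointly lower genes lie in the lower left and the 278 jointly higher genes in the upper right, while TAGLN2 and FTL lie far to the right near 0 on the y axis, away from miR-133a alone.

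No gene passed the test of the 3 seed group miRNAs against each other, which called 0 of 14003 genes with edgeR and 0 with DESeq2's likelihood ratio test; 101 genes (0.721%) had an unadjusted p under 0.05 in edgeR and 82 in DESeq2. That share is below the threshold of 0.05 itself. Without miR-302a number 2 the unadjusted count was 559, and without the 5 libraries numbered 2 it was 977, with 0 called in both. These counts do not show that the 3 miRNAs act alike.

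Genes with a match to the shared seed in the longest annotated 3′UTR were lower more often than genes without one. Of 8041 tested genes with no 8mer or 7mer-m8 of any of the 3 seeds (shared, miR-133a, miR-155), 11.4% were lower and 2.23% jointly lower. Of 360 genes with an 8mer of the shared seed and no miR-133a or miR-155 site, 35.6% were lower, 18.6% were jointly lower and 4.17% were higher. Their median log2 fold change was -0.101, beside 0.001 for the genes without a site. With a 7mer-A1 as the strongest match, 19.4% of 484 genes were lower and 14.7% higher, miR-133a and miR-155 sites being allowed in this class. Among the 418 jointly lower genes with an annotated 3′UTR, 20.6% held an 8mer and 50% an 8mer or 7mer-m8, against 4.31% and 26.5% of all 12987 tested genes with a 3′UTR. Of the 265 jointly higher genes, 1.89% held an 8mer. A miR-133a site was held by 23% of these 265 and a miR-155 site by 15.8%, against 9.12% and 13% of all 12987. The joint call thus did not remove all genes with a site for a comparator.

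The comparators' own sites moved the other way. Of 602 genes with a miR-133a site alone, 28.1% were higher in the seed group and 6.64% lower, and of 789 genes with a miR-155 site alone, 20.4% were higher and 11% lower. A related miRNA family, miR-17, has almost the same seed moved by 1 base (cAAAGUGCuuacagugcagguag, bases 2 to 8 in capitals). Of 838 genes with a site for it and no match to the shared seed, 11.7% were lower, close to the 10.5% of 8227 genes with neither.

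The 7mer-m8 class was not uniform. Among 5097 sites of 8mer or 7mer-m8 type in tested 3′UTRs, 1574 (30.9%) were the end of the 14-letter phrase TAATCCCAGCACTT, the most common run of letters before a 7mer-m8. These letters stand in the consensus of the Alu repeat. The phrase was found in 9.39% of the 12987 3′UTRs, searched on the transcript strand, and 0 of these sites were 8mers. Of 505 genes whose 7mer-m8 sites all ended this phrase, 10.5% were lower and 1.58% jointly lower, with a median log2 fold change of 0. Of 1451 genes with at least 1 7mer-m8 outside it, 20.3% were lower and 6.27% jointly lower, with a median of -0.033. Genes with exactly 1 site showed the same split, with 11.3% of 433 lower inside the phrase and 21.7% of 1034 outside it, at median 3′UTR lengths of 2340 and 2338 bases and median A and U shares of 57.4% and 57.8%. This split was chosen after the sites of the leading genes were seen. Copies of the phrase with a changed letter were counted as outside it.

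**Figure D2:**
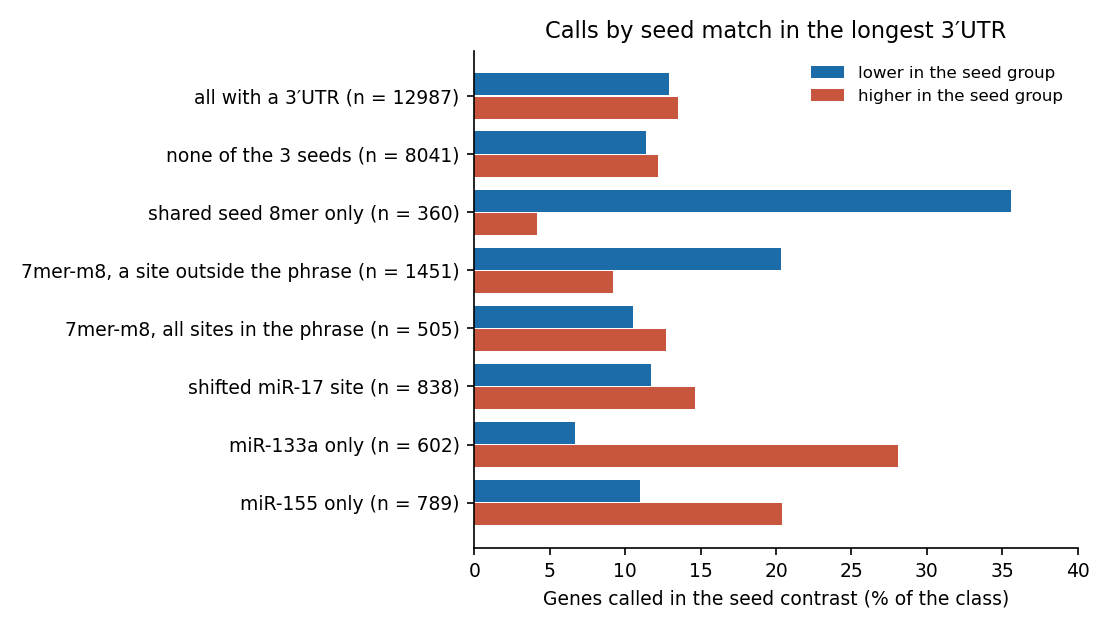
Bars give the percentage of genes in each class that were lower (blue) or higher (red) in the seed group; classes are set by seed matches in the longest 3′UTR and n is the number of genes. The 8mer class reaches 35.6% lower, the 7mer-m8 class inside the repeat phrase stays at 10.5%, near the 11.4% of genes without sites, and the miR-133a class reaches 28.1% higher.

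Base composition moved with the contrast as well. The jointly lower genes had a median of 61.9% A and U in the 3′UTR and the jointly higher genes 48.7%, against 57.3% for all. Genes were split into 5 equal classes by this share. In the class with the least A and U, 9.62% were lower and 17.7% higher, and in the class with the most, 19% were lower and 8.39% higher. The rank correlation of a library's deviations with the A and U share was -0.346 to 0.185 in the seed group and 0 to 0.207 in the comparators, and its part in the calls was not tested. Within each class, genes with an 8mer were lower more often than genes without a site: 44% against 8.45% (25 8mer genes), 18.8% against 8.8% (64), 31.8% against 10.4% (85), 34.5% against 13.4% (110) and 52.6% against 17% (76), from the least to the most A and U. The same held in 3 equal classes of 3′UTR length, with 40%, 38.9% and 33.2% of 8mer genes lower from the shortest to the longest, against 10.6%, 11.8% and 12.9% without a site.

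The site sets also separated the libraries one by one. Each gene's log2 CPM was first taken relative to its mean over the 15 libraries. The sign of a shift is therefore relative to that mean and not to cells without a miRNA. Relative to genes without a site, the 360 genes with a shared seed 8mer lay lower by a median log2 shift of -0.186 to -0.010 in the 9 seed group libraries, and their shift was 0.031 to 0.128 in the 6 comparator libraries, so the groups did not overlap. In the 3 empty vector libraries it was 0.125 to 0.170. The lowest value belonged to miR-372 number 2, and the other 8 seed group libraries were at -0.088 to -0.010. The set of 224 genes with a miR-133a 8mer lay at -0.235 to -0.167 in the miR-133a libraries and at 0.020 to 0.124 in the seed group, and the set of 301 genes with a miR-155 8mer at -0.191 to -0.128 in the miR-155 libraries and at -0.034 to 0.070 in the seed group.

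**Figure D3:**
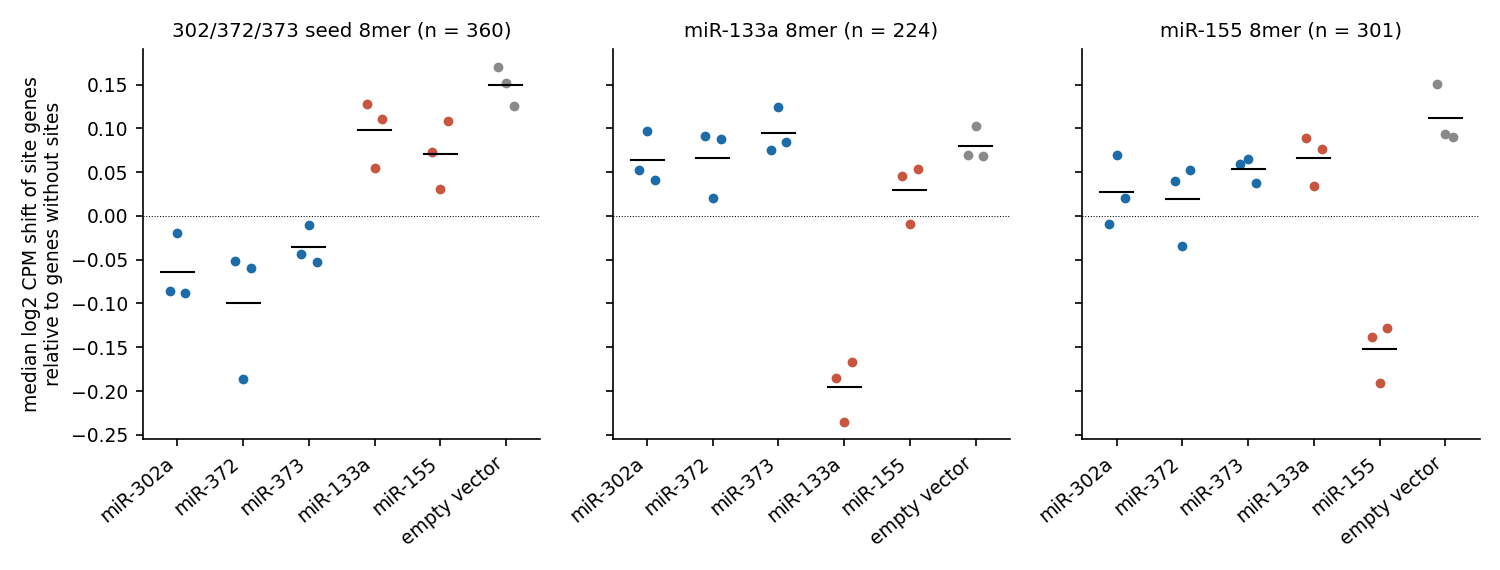
Each point is 1 library and each line the mean of 3; the y axis is the median log2 CPM shift of genes with an 8mer for the named seed (and no 8mer or 7mer-m8 for the other seeds) relative to genes without sites. Each set is lowest in the libraries that express the matching miRNA. Levels are relative to each gene's mean over the 15 libraries, so 0 is not a level without a miRNA. The shared seed set lies below 0 in all 9 seed group libraries and above 0 in the comparator and empty vector libraries.

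The 6 lowest genes with an 8mer, chosen by a rule on fold change, a minimum level and libraries that do not overlap, were GALNT3, MBD2, SPRYD3, BARX2, MICA and CROT. Their 8mers are printed because these are the strongest cases in which a site and a lower level coincide; each line is the transcript strand 5′ to 3′ from GRCh37, with the site in capitals.
GALNT3 (chr2:166604642-166604649, minus strand): gtctgtaatacactccacttgaAGCACTTA
MBD2 (chr18:51681392-51681399, minus strand): aggtgcaatctactggaaatgtAGCACTTA
MBD2, second site (chr18:51678854-51678861, minus strand): tctgatttcccgttacagccccAGCACTTA
SPRYD3 (chr12:53458653-53458660, minus strand): tttcgcttcagtgtttgattctAGCACTTA
BARX2 (chr11:129321731-129321738, plus strand): tgcccaggttccttgctgactcAGCACTTA
MICA (chr6:31383020-31383027, plus strand): cctatgaaacagagaaaataaaAGCACTTA
CROT (chr7:87027978-87027985, plus strand): agatgaatcatctattaAGCACTTA
CROT, second site (chr7:87028939-87028946, plus strand): agttttgtgaatagaaaaataaAGCACTTA

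GALNT3, an enzyme that starts O-linked glycosylation of proteins such as FGF23, had the smallest adjusted p of the named genes. Its level was 13.6 to 18.2 CPM in the 9 seed group libraries (median 15.2), 44.4 to 55.7 CPM in the 6 comparator libraries (median 47.9) and 42.7 to 53.1 CPM in the empty vector libraries. No seed group library reached either of these ranges, and the log2 fold change against the comparators was -1.64 (SE 0.06, adjusted p = 1.51e-11). MBD2, a reader of methylated CpG DNA, was at 21.6 to 29.2 CPM in the seed group (median 24.3) and 56.5 to 77.8 CPM in the comparators (median 62.4), a log2 fold change of -1.36 (SE 0.06, adjusted p = 1.35e-10). Its longest 3′UTR held 2 8mers and 1 7mer-m8, and a small nucleolar RNA gene, SNORA37, overlaps it on the same strand.

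BARX2, a homeobox transcription factor, was at 9.90 to 12.5 CPM in the seed group and 25 to 30.6 CPM in the comparators (log2 fold change -1.32, SE 0.07, adjusted p = 1.81e-09). CROT, which makes carnitine esters of shortened fatty acids in peroxisomes, was at 6.02 to 8.80 CPM and 15.2 to 17.8 CPM (log2 fold change -1.26, SE 0.08, adjusted p = 1.42e-08). MICA, a stress ligand of the NKG2D receptor of lymphocytes, was at 7.28 to 10.2 CPM and 18.9 to 26.7 CPM (log2 fold change -1.29, SE 0.09, adjusted p = 3.6e-08). MICA is a polymorphic gene with close relatives and a same-strand neighbour, so its counts are uncertain. SPRYD3 was at 11.2 to 15.1 CPM in the seed group and 26.1 to 43.6 CPM in the comparators (log2 fold change -1.34, SE 0.07, adjusted p = 1.81e-09), with 19.8 to 23.9 CPM in the empty vector cells, between both groups. For these 6 genes no seed group library reached the lowest comparator library, as for 548 genes (3.91%) in this direction and 380 (2.71%) in the other.

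Among the 10 lowest genes by the same rule, several held no match. SAMD9, OAS3, COL12A1, VAT1L, MAP2 and ZNF365 had no 8mer, 7mer-m8 or 7mer-A1 in the longest 3′UTR, and 232 of the 527 lower genes that met the naming rule had none, beside 9065 of all 12987 tested genes with a 3′UTR. SAMD9, an antiviral restriction factor, was the lowest: 0.458 to 1.39 CPM in the seed group (median 1.13), 5.03 to 7.42 CPM in the comparators (median 6.35) and 5.85 to 7.49 CPM in the empty vector cells (log2 fold change -2.59, SE 0.17, adjusted p = 2.5e-08). Its 3′UTR held 1 8mer and 1 7mer-m8 for miR-133a, yet its mean was 6.32 CPM with miR-133a and 6.28 CPM with miR-155. OAS3, which makes the 2′-5′ oligoadenylates that activate RNase L, was at 2.04 to 3.51 CPM and 6.96 to 11.5 CPM (log2 fold change -1.91, SE 0.12, adjusted p = 1.06e-08).

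MAP2, a neuronal microtubule protein, was at 2.04 to 4.2 CPM in the seed group and 8.34 to 12.8 CPM in the comparators (log2 fold change -1.63, SE 0.13, adjusted p = 2.15e-07). COL12A1, a collagen of the fibril-associated class, was at 1.80 to 4.38 CPM and 6.35 to 19.7 CPM (log2 fold change -1.87, SE 0.18, adjusted p = 1.78e-06). Its comparators differed, with means of 7.78 CPM for miR-133a and 15.2 CPM for miR-155. VAT1L was at 1.44 to 2.86 CPM in the seed group, at a mean of 3.83 CPM with miR-133a and 13.8 CPM with miR-155, and at 1.73 to 2.73 CPM in the empty vector cells, within the range of the seed group. ZNF365 was at 0.842 to 1.63 CPM in the seed group and 1.97 to 4.89 CPM in the comparators (log2 fold change -1.61, SE 0.18, adjusted p = 7.73e-06), and the empty vector cells, at 1.05 to 1.88 CPM, lay nearer the seed group. Other genes overlap VAT1L and ZNF365 on the same strand.

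ERAP2, SP110 and RTN1 complete the 10 lowest. ERAP2, an aminopeptidase that trims peptides for presentation by MHC class I, was at 8.17 to 14.5 CPM in the seed group, 38.3 to 43.5 CPM in the comparators and 36.9 to 42.4 CPM in the empty vector cells (log2 fold change -1.87, SE 0.11, adjusted p = 4.74e-09). Its 1 match was a 7mer-m8 that ended the repeat phrase. SP110, an interferon-inducible nuclear body protein, was at 0.912 to 2.62 CPM and 5.94 to 7.51 CPM (log2 fold change -1.63, SE 0.15, adjusted p = 9.77e-07), and 1 of its 2 7mer-m8 sites ended the phrase. The other site ended a copy of the phrase with 1 changed letter. RTN1, an endoplasmic reticulum protein of neurons and neuroendocrine cells, was at 2.27 to 4.31 CPM in the seed group and 11.1 to 12.4 CPM in the comparators (log2 fold change -1.71, SE 0.10, adjusted p = 6.9e-09), with 2 7mer-A1 sites and an overlapping miRNA gene, MIR5586, and the empty vector cells, at 7.63 to 8.44 CPM, lay between.

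The 10 highest genes by that rule were PRSS8, SERPINF1, NES, MXRA8, TERT, FLNC, SNCG, SYT2, GPSM3 and the long noncoding RNA ENSG00000272079. The 9 coding genes had no match to the shared seed in their longest 3′UTR. PRSS8, a membrane-anchored serine protease of epithelia, was at 2.46 to 7.25 CPM in the seed group (median 4.42), 0.567 to 1.15 CPM in the comparators (median 0.925) and 0.989 to 1.28 CPM in the empty vector cells (log2 fold change 2.38, SE 0.26, adjusted p = 5.4e-06). SERPINF1, a secreted serpin with antiangiogenic activity, was at 19.3 to 34.9 CPM and 4.5 to 11.5 CPM (log2 fold change 1.99, SE 0.14, adjusted p = 4e-08). NES, an intermediate filament protein of neural progenitors, was at 12.2 to 19.7 CPM and 2.22 to 6.82 CPM (log2 fold change 1.92, SE 0.12, adjusted p = 1.39e-08). Both SERPINF1 and NES had higher levels with miR-133a than with miR-155, at means of 11.1 and 4.81 CPM for SERPINF1 and 6.31 and 2.69 CPM for NES.

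TERT, the catalytic subunit of telomerase, was at 5.40 to 11.1 CPM in the seed group (median 8.28), 1.84 to 2.85 CPM in the comparators (median 2.70) and 4.09 to 4.2 CPM in the empty vector cells (log2 fold change 1.69, SE 0.18, adjusted p = 4.65e-06). The empty vector level was below every seed group library and above every comparator library. MXRA8, a cell adhesion protein that alphaviruses use as a receptor, was at 2.71 to 4.95 CPM and 0.522 to 1.42 CPM, and FLNC, an actin crosslinker of muscle, at 4.31 to 10.0 CPM and 1.07 to 3.53 CPM. SNCG, a synuclein, was at 2.97 to 6.93 CPM and 0.803 to 2.48 CPM, and SYT2, a synaptic calcium sensor, at 5.64 to 7.65 CPM and 1.45 to 2.76 CPM. SYT2 has 2 8mers for miR-133a, with means of 2.08 CPM with miR-133a and 2.27 CPM with miR-155. GPSM3, a regulator of G protein signalling, overlaps NOTCH4 on the same strand. The log2 fold changes of these 5 genes were 1.61 to 1.76, with adjusted p from 2.2e-07 to 9.04e-05.

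**Figure D4:**
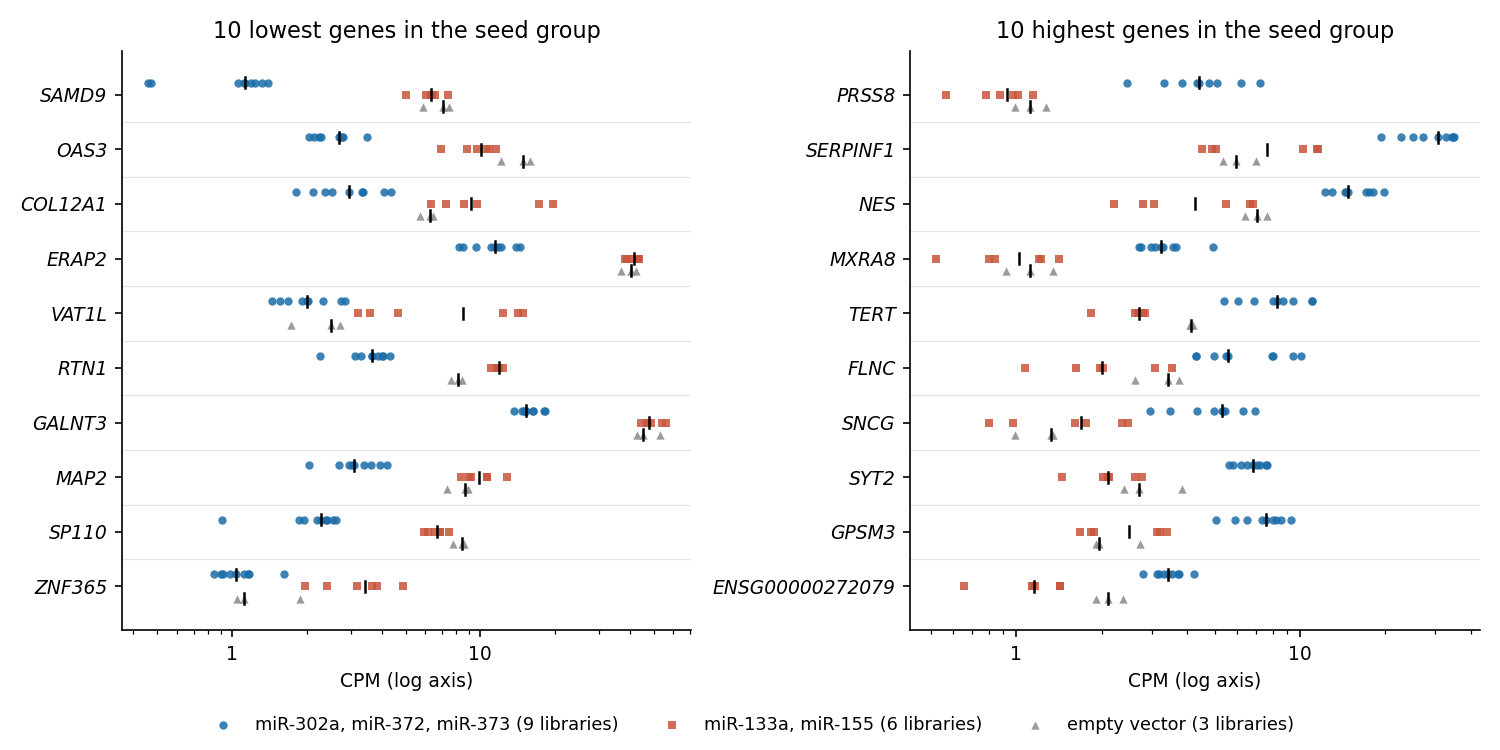
CPM on a log axis in each library for the 10 lowest genes (left) and the 10 highest genes (right) by the naming rule; blue points are the 9 seed group libraries, red squares the 6 comparator libraries, grey triangles the 3 empty vector libraries and black ticks the medians. No blue point overlaps a red one, and the empty vector libraries lie with the comparators for SAMD9, ERAP2 and GALNT3 and within the range of the seed group for VAT1L.

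Where the empty vector cells lay differed between directions. On a scale from 0 (comparator mean) to 1 (seed group mean) of log2 CPM, they were nearer the comparators for 366 of 428 jointly lower genes (85.5%, median position 0.164) and for 191 of 278 jointly higher genes (68.7%, median 0.346). All 3 empty vector libraries lay beyond the 9 seed group libraries, on the comparators' side, for 317 of the lower and 173 of the higher genes. These genes were selected because the seed group differs from the comparators. The same shares over all tested genes are not given, so these counts have no background to be judged by. The empty vector libraries also stood apart by exon length, with rank correlations of 0.243 to 0.422, and by the A and U share, at 0.084 to 0.478, and the part of these in their position was not tested.

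Among 24 tested genes of a list of widely studied targets of the shared seed, 12 (50%) were lower and 2 higher, beside 12.5% and 13.3% of all tested genes, and 10 were jointly lower. Their median log2 fold change was -0.33. Of the 24, 19 held an 8mer or 7mer-m8 and 9 of these were lower. MBD2 and TGFBR2 had the largest changes. TGFBR2, the type II receptor for TGF-β, was at 7.67 to 10.4 CPM in the seed group (median 9.15), 17.7 to 19.6 CPM in the comparators (median 18.6) and 18.2 to 19.9 CPM in the empty vector cells (log2 fold change -1.04, SE 0.07, adjusted p = 2.5e-08). DAZAP2, a small proline-rich protein, was at 79.7 to 97.9 CPM in the seed group and 113 to 169 CPM in the comparators (log2 fold change -0.67, SE 0.05, adjusted p = 7.93e-08), and with miR-133a its mean was 160 CPM against 119.5 CPM with miR-155. TP53INP1, a stress-induced protein of the p53 response, was higher (log2 fold change 0.67, SE 0.09, adjusted p = 2.93e-05); it holds 1 7mer-m8 of the shared seed and 1 8mer of miR-155, and it is also on the miR-155 and p53 lists. The 8mers of TGFBR2 and LATS2 are given as sites of known targets (GRCh37, transcript strand, site in capitals).
TGFBR2 (chr3:30735514-30735521, plus strand): tctttttatatcaaaagtctcaAGCACTTA
LATS2 (chr13:21548740-21548747, minus strand): aaatttagtacagtttagaaagAGCACTTA
LATS2, second site (chr13:21548640-21548647, minus strand): tctacatttgtattttatccatAGCACTTA

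The lists of the comparators' targets were counted as well, since a low level with 1 comparator also moves the contrast. Whether miR-133a and miR-155 acted on these genes was not tested. Of 21 tested miR-133a targets, 12 (57.1%) were higher in the seed group, 3 of them jointly, and 1 lower. Of 22 tested miR-155 targets, 13 (59.1%) were higher, 4 of them jointly, and none lower. Among all tested genes, 13.3% were higher, 1.99% jointly higher and 12.5% lower. TAGLN2, an actin-binding protein, was at 278 to 344 CPM in the seed group and at means of 72.1 CPM with miR-133a and 344 CPM with miR-155. FTL, the ferritin light chain, was likewise at a mean of 77.7 CPM with miR-133a and 413 CPM with miR-155, and 351 to 462 CPM in the seed group. JARID2, a cofactor of Polycomb complex PRC2, was at 82.2 to 100.2 CPM in the seed group and at means of 83.0 CPM with miR-133a and 35.3 CPM with miR-155. BACH1, a repressor of haem and oxidative stress genes, was at 79.7 CPM with miR-133a and 41.5 CPM with miR-155. These 4 genes were not called jointly. FLI1, an ETS factor with 1 miR-133a 8mer, was higher jointly (log2 fold change 1.21, SE 0.10, adjusted p = 1.44e-07), at means of 5.72 CPM with miR-133a and 5.63 CPM with miR-155. GSTP1, a glutathione transferase, was likewise higher jointly (log2 fold change 1.40, SE 0.08, adjusted p = 5.19e-09), at means of 6.82 CPM with miR-133a and 23.6 CPM with miR-155.

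Receptors and SMADs of the TGF-β family were mostly not called (18 of 27). Of the 27 tested, 2 (7.41%) were lower, TGFBR2 and BMPR2, both jointly, and 7 (25.9%) were higher, 3 of them jointly, beside 12.5% and 13.3% of all tested genes, with a median of 0.029. Without the libraries numbered 2, 5 were lower, and 2362 of all 14081 genes tested in that setting were lower, against 1745 of 14003 in the full set. BMPR2, the type II receptor for BMPs, was at 39.5 to 51.9 CPM in the seed group and 60.0 to 86.6 CPM in the comparators (log2 fold change -0.55, SE 0.06, adjusted p = 3.46e-06), and its longest 3′UTR held 2 7mer-m8 sites, of which 1 ended the repeat phrase. ACVR2B, a type II receptor for activins, was at 82.3 to 116 CPM and 38.6 to 73.8 CPM (log2 fold change 0.71, SE 0.09, adjusted p = 2.73e-05). Its longest 3′UTR held 1 7mer-m8 for miR-133a, and 1 8mer and 1 7mer-m8 for miR-155. It also held 1 7mer-m8 of the shared seed. SMAD5, a BMP effector and a miR-155 target, was at 192 to 221 CPM in the seed group, at means of 173 CPM with miR-133a and 106 CPM with miR-155, and at 195 to 212 CPM in the empty vector cells, within the range of the seed group.

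Of 32 tested regulators of G1, 12 (37.5%) were lower and 8 (25%) higher, beside 12.5% and 13.3% of all tested genes. Jointly, 5 were lower and 1 higher, beside 3.06% and 1.99% of all tested genes, and the median was -0.11. Inhibitors were not the only lower members: the kinase CDK2 and the transcription factor E2F1 were jointly lower, and E2F3 was the jointly higher gene. CCND3 and TFDP1 were lower, and CCND1, CCNE1 and CDK6 were higher, none of them jointly. CDKN2B, an inhibitor of CDK4 and CDK6, was at 26.6 to 31.2 CPM in the seed group and 36.0 to 55.5 CPM in the comparators (log2 fold change -0.66, SE 0.05, adjusted p = 1.85e-07), with 1 7mer-m8. RB1, the retinoblastoma protein, was at 70 to 105 CPM and 116 to 126 CPM (log2 fold change -0.49, SE 0.08, adjusted p = 2.04e-04), with no match. CDKN2D, another inhibitor of CDK4 and CDK6, was lower as well (log2 fold change -0.48, SE 0.10, adjusted p = 0.00157), but the empty vector cells, at 7.98 to 10.8 CPM, lay in the range of the seed group, 7.05 to 11.2 CPM, and below the comparators, 11.7 to 14.9 CPM. CDKN1C, an inhibitor of cyclin-dependent kinases, was higher in the contrast but not jointly, and its libraries overlapped (log2 fold change 1.24, SE 0.21, adjusted p = 3.24e-04), and it was at means of 3.31 CPM with miR-133a and 1.68 CPM with miR-155. CDKN1A, the p21 inhibitor, had a log2 fold change of -0.34, made of 0.03 against miR-133a and -0.71 against miR-155. Its mean was 62.8 CPM with miR-133a, 104 CPM with miR-155 and 56.4 to 68.5 CPM over the 3 seed group miRNAs.

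Of 56 listed interferon-response and antiviral genes, 40 could be tested. Of these, 20 (50%) were lower, 11 of them jointly, 20 were not called and none was higher, with a median of -0.235. Among all tested genes, 12.5% were lower, 3.06% jointly lower and 13.3% higher. In 10 of the 40 the longest 3′UTR held an 8mer or 7mer-m8, and 5 of these were among the 20. Besides SAMD9 and OAS3, the largest changes were in IFIH1, a sensor of double-stranded RNA, at 2.63 to 5.40 CPM in the seed group and 8.68 to 11.7 CPM in the comparators (log2 fold change -1.34, SE 0.13, adjusted p = 1.87e-06), and in IFI35, at 1.47 to 2.59 CPM and 3.26 to 5.74 CPM (log2 fold change -1.25, SE 0.15, adjusted p = 1.26e-05). Empty vector cells had 8.53 to 11.1 CPM of IFIH1 and 3.82 to 4.13 CPM of IFI35, above all seed group libraries.

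Of 28 pluripotency factors, 14 could be tested. Of these, 7 (50%) were higher and none lower, beside 13.3% and 12.5% of all tested genes, with a median of 0.322. Jointly higher were 3 of the 14, beside 1.99% of all tested genes. The 3 were TERT, TRIM71 and LIN28B. TRIM71, an RNA-binding ubiquitin ligase of early embryos, was at 4.73 to 6.94 CPM in the seed group, 1.68 to 2.70 CPM in the comparators and 2.73 to 3.53 CPM in the empty vector cells (log2 fold change 1.39, SE 0.11, adjusted p = 1.84e-07), although its 3′UTR held 1 7mer-m8. LIN28B, which blocks maturation of let-7 miRNAs, was at 123 to 175 CPM and 52.2 to 90.6 CPM (log2 fold change 1.12, SE 0.08, adjusted p = 3.6e-08), and the empty vector cells, at 118 to 121.8 CPM, lay nearer the seed group. The longest 3′UTR of LIN28B held 3 7mer-m8 sites for miR-155. UTF1, a chromatin factor of stem cells, was called higher (log2 fold change 1.25, SE 0.27, adjusted p = 0.00232) at 1.62 to 5.26 CPM and 0.653 to 2.37 CPM, and its libraries overlapped.

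Epithelial and mesenchymal genes had medians of the same sign. Of 19 tested epithelial genes 7 (36.8%) were higher and 2 (10.5%) lower (median 0.135). Of 20 tested mesenchymal genes 9 (45%) were higher and 3 (15%) lower (median 0.184). Among all tested genes, 13.3% were higher and 12.5% lower. Without miR-133a number 2, miR-302a number 1 or miR-373 number 3, 5 mesenchymal genes were higher, and without miR-372 number 3, 5 were lower. Among all tested genes, these settings called 1505, 1601 and 1562 higher and 1646 lower, against 1856 and 1745 in the full set. CDH1, E-cadherin, was at 16.2 to 24.8 CPM in the seed group and 9.63 to 14 CPM in the comparators (log2 fold change 0.76, SE 0.10, adjusted p = 2.49e-05), and CLDN3, a tight junction claudin, at 0.951 to 2.46 CPM and 0.271 to 0.841 CPM (log2 fold change 1.64, SE 0.26, adjusted p = 2.31e-04). TJP3 and CLDN4, also of tight junctions, rose by 0.96 and 0.88 on the log2 scale. Of the mesenchymal genes, COL1A1, a fibrillar collagen, was at 16.2 to 25.7 CPM and 8.17 to 14 CPM (log2 fold change 0.96, SE 0.14, adjusted p = 7.33e-05); it is also one of the markers of other cell types. S100A4, SNAI1 and FN1 were higher by 1.23, 0.70 and 0.51, and FN1 was called against both comparators together but not jointly.

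Among 19 tested regulators of DNA methylation and of LSD1 demethylases, 3 (15.8%) were lower and 4 (21.1%) higher. The shares of all tested genes were 12.5% and 13.3%. Without the 5 libraries numbered 2 the lower count of this list was 7, and that of all 14081 genes tested in that setting was 2362. KDM1B, a demethylase of histone H3 lysine 4 with an 8mer, was at 27.0 to 39.5 CPM in the seed group and 42.7 to 52.2 CPM in the comparators (log2 fold change -0.56, SE 0.07, adjusted p = 3.6e-05). DNMT3B, a de novo DNA methyltransferase, was at 71.2 to 86.4 CPM and 45.3 to 57.6 CPM (log2 fold change 0.61, SE 0.07, adjusted p = 4.2e-06), and the corepressor RCOR2 at 6.80 to 10.8 CPM and 4.57 to 6.49 CPM (log2 fold change 0.67, SE 0.13, adjusted p = 8.78e-04). In the Hippo pathway, 3 of 25 tested genes (12%) were lower and 4 (16%) higher, shares near those of all tested genes (12.5% and 13.3%). Without the libraries numbered 2, 7 were lower, beside 2362 of all 14081 genes. LATS2, a kinase that inhibits YAP, was at 5.64 to 9.63 CPM in the seed group, 10.2 to 14.5 CPM in the comparators and 15.2 to 16 CPM in the empty vector cells (log2 fold change -0.64, SE 0.11, adjusted p = 2.67e-04), while WWC1 and AMOT were higher by 0.61 and 0.42, neither jointly, and TEAD1 lower by -0.27.

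In the remaining lists most members were not called, and the shares of all tested genes were 12.5% lower and 13.3% higher. Of 26 tested genes of miRNA processing and silencing, 1 (3.85%) was lower and 4 (15.4%) higher. TRIM71 and XPO5, the exporter of miRNA precursors, were jointly higher (XPO5: log2 fold change 0.32, SE 0.06, adjusted p = 9.7e-04), and CNOT6 and DCP2 were at -0.26 and 0.24. Of 28 p53 response genes 3 (10.7%) were lower and 5 (17.9%) higher. Of these TP53INP1 was called jointly, while BTG2 was at 0.90 against miR-133a and 0.19 against miR-155, and FAS at -0.14 and -0.67. Without the 5 libraries numbered 2, the p53 list had 5 lower and 10 higher. Of all 14081 genes tested in that setting, 2362 were lower and 2724 higher. Of the HEK293 markers, PAX2 was called higher by 0.41 and VIM lower by -0.17, neither jointly. PAX2 lost the call without miR-133a number 1, miR-155 number 2, miR-302a number 1 or miR-373 number 3 (adjusted p = 0.0573, 0.0656, 0.0525 and 0.0518), and VIM without miR-133a number 2 or 3 (adjusted p = 0.0651 and 0.0653).

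**Figure D5:**
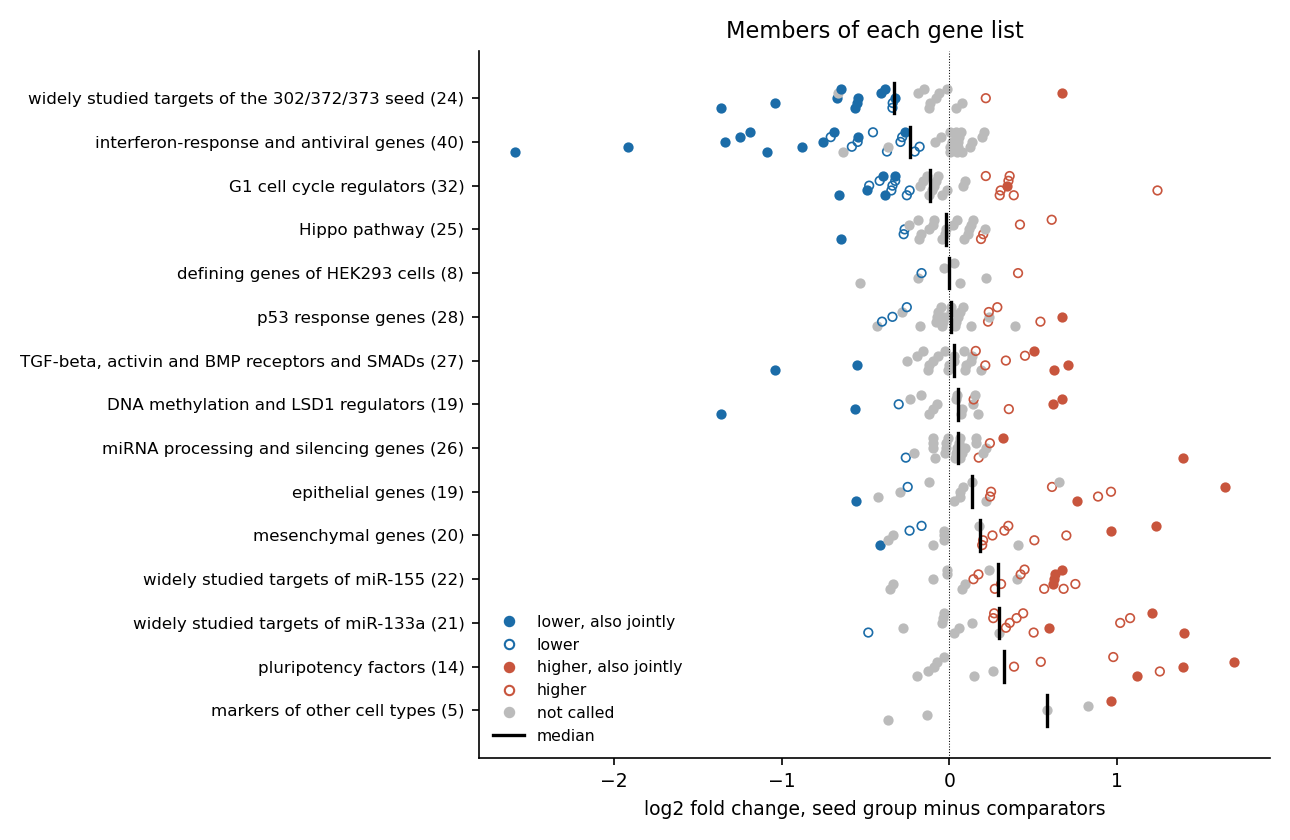
Each point is 1 tested member of a list (number in brackets) by its log2 fold change of the seed group minus the comparators; blue and red are called lower and higher, filled where also jointly, grey is not called and the black bar is the median. Medians run from -0.33 for targets of the shared seed and -0.235 for interferon-response genes to 0.322 for pluripotency factors among the lists of pathways and targets; the 5 tested markers of other cell types had a median of 0.58.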

How the data were processed

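Messenger RNA was sequenced in 5 groups of 3 libraries and in 3 empty vector libraries of the same batch. The authors clipped adapters with fastx_clipper, aligned reads to hg19 with TopHat 2.1.1 and counted reads per gene over exons by strand with featureCounts at a mapping quality of at least 50, and the deposited values are raw counts. The authors' own comparisons, made with edgeR 3.24.3, hold fold changes and p-values and were not used. Batch 1 was not used here.

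Counts were tested with edgeR 4.0.16 (R 4.3.3): filterByExpr with a minimum count of 10, TMM factors, and quasi-likelihood F-tests on a model with 1 coefficient per miRNA, adjusted by Benjamini-Hochberg over 14003 genes at a threshold of 0.05. The contrast was the mean of the seed group minus the mean of the comparators on the log2 scale (prior count 0.125). SE is the log2 fold change divided by the square root of F. The joint call adjusted the larger of both p-values per gene where the signs were equal. CPM levels use TMM factors over 18 libraries. All library pairs within a group differed beyond sampling noise (chi-square per degree of freedom 2.46 to 35.7), so each counts as 1 replicate. Totals of 13047400 to 35040778 counts and 3 libraries per miRNA limit precision. The scripts were tested on simulated data.

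Seed matches were searched in the longest annotated 3′UTR of at least 30 bases (GENCODE on GRCh37, which matched 28543 of 29794 genes). Site classes and gene lists are described by counts and medians without a test. The contrast, members and lists were chosen with earlier results of these data known. Named genes were called in the contrast, had a symbol and an average log2 CPM no lower than 1, and all 9 seed group libraries lay on one side of all 6 comparator libraries: the 10 lowest, the 10 highest, the 6 lowest with an 8mer and the 6 lowest without a match, besides up to 4 called members per list by size of change. Some items that met these rules are not reported here. The alternatives tried were DESeq2 1.42.0, its size factors, other filters, all 18 libraries, equal depth, a replicate block, other error terms, a minimum change of 0.2, and leaving out each library or miRNA.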

Additional observations from a re-analysis of the deposited data

Results flagged for a closer look

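The effect against miR-133a and the effect against miR-155 were tested for a difference, which is the contrast miR-133a minus miR-155 (edgeR's quasi-likelihood test), and 24 of the 69 named genes differed. Among all 14003 tested genes, 2109 (15.1%) differed. The 69 were picked by size of change, some from the target lists of miR-133a and miR-155, so a raised share was built into the choice. The seed group libraries are common to both effects. No cause was tested.

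In 4 genes the comparators were more than 1.5 apart on the log2 scale, all lower with miR-133a. They were FTL at -2.41 (adjusted p = 6.33e-08) and TAGLN2 at -2.25 (adjusted p = 5.3e-10), both near 0 against miR-155, VAT1L at -1.85 (adjusted p = 1.29e-05) and GSTP1 at -1.79 (adjusted p = 1.95e-07). VAT1L was lower and GSTP1 higher in the seed group against both comparators.

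Other genes were lower with miR-133a than with miR-155 by smaller steps. The log2 difference was -0.97 for COL12A1, -0.85 for GPSM3, -0.73 for CDKN1A, -0.71 for BTG2, -0.70 for LIN28B and -0.63 for FN1. It was -0.53 for FAS, -0.50 for CDKN2B, -0.44 for TP53INP1, -0.37 for BMPR2, -0.29 for VIM and -0.26 for MBD2. Adjusted p-values of these 12 genes ran from 1.69e-05 to 0.044.

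The genes lower with miR-155 were led by JARID2 at 1.23 (adjusted p = 2.88e-06), NES at 1.22 (adjusted p = 5.8e-04) and SERPINF1 at 1.21 (adjusted p = 0.00191). NES and SERPINF1 were higher in the seed group against each comparator. BACH1 was at 0.94, WWC1 at 0.80, SMAD5 at 0.71, SPRYD3 at 0.59 and DAZAP2 at 0.42, with adjusted p from 3.23e-06 to 0.00145.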

How the results depend on the processing

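The contrast of 3601 genes ranged from 2892 to 4268 when 1 library was left out and fell to 1358 when counts were summed per miRNA, which leaves 5 values. The joint call of 706 ranged from 437 to 910 (437, 439 and 470 without a miR-133a library). Without all 5 libraries numbered 2, a setting chosen after seeing the data, the contrast called 5086 genes, among them 91.1% of the 3601, and the joint call 1222. The comparators differed in 2109 genes, in 1311 to 2491 with 1 library left out. The test within the seed group called 0 genes under 23 alternatives, with 977 at an unadjusted p under 0.05 without the libraries numbered 2, 559 without miR-302a number 2 and 101 in the full set; the cause was not tested. A minimum change of 0.2 left 3100 and 706 genes. The labels do not say that a number marks a shared day or batch, and the libraries were not taken as paired: 11 of 18 same-numbered pairs across the contrast had a correlation of deviations over 0.1 (-0.083 to 0.583), all 3 pairs in 3 of 6 group combinations, and 11 of 15 libraries correlated best with their own number. With the replicate block, 4746 genes were called, all 3601 among them, and 1086 jointly. Genes with a shared seed site differed in median log2 fold change from genes without one by -0.034, by -0.102 with 8mers alone and by -0.001 where all 7mer-m8 sites ended the repeat phrase. Between single libraries of a group, the shift of site genes had an SD of 0.033, and of 0.046 with 8mers alone. Of 69 named genes, 49 were called under every alternative in which they were tested. FTL (-0.123, adjusted p = 0.558) and TAGLN2 (-0.104, adjusted p = 0.361) changed sign without miR-133a, and CDKN1A (0.034, adjusted p = 0.844) without miR-155, since 1 comparator then remains. The Hippo median changed sign under 12 of 30 alternatives, that of HEK293 genes under 17, the p53 median under 7, that of DNA methylation and LSD1 regulators under 2 and that of miR-133a targets under 1.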
